A study of Xenopus tropicalis with 16 samples.

Results

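The genes described here are the 200 gastrula genes whose level differed most between the title replicate numbers of the NF10 explants, out of 8495 eligible genes and 14373 genes counted. They were chosen by measured values. In each of the 6 NF10 libraries the level was taken as log2(CPM + 1), where CPM is counts per 1000000 assigned fragments after TMM scaling over all 16 libraries. The control and the knockdown value with the same replicate number in their titles were averaged, which gave 3 values per gene. Eligible genes had at least 1 read in all 6 NF10 libraries and averaged at least 5 CPM there, and the 200 with the widest span between the highest and the lowest value were kept. The NF10 differences between numbers are therefore given below as a description, with no test.

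The study profiled RNA from Xenopus tropicalis animal caps to follow transcription in differentiating ectoderm with and without SUV4-20H enzymes, which methylate histone H4. Every embryo had received morpholinos, antisense oligomers that block translation: a control morpholino (CoMo) in the controls, or morpholinos against Suv4-20H1/2 together in the knockdown. Embryos were injected at cleavage, caps were cut at the blastula stage, several caps were pooled per sample, and explants were collected when intact embryos raised alongside reached NF10 (gastrula), NF16 (neurula) or NF24 (tailbud). Among the libraries used here, NF10 and NF24 each had 3 control and 3 knockdown libraries, and NF16 had 2 and 2. The paper itself states 3 biological replicates for its RNA-seq of these stages. The labels give no age beyond the stage and no strain. The titles number the libraries of each group from 1, and whether a number stands for one fertilisation, clutch or day is not given in the sources used here. It is called the replicate number below. Because the methods call the replicates biological without saying what was shared, p-values measure the spread between these samples, and in bulk RNA fewer cells of a type cannot be told apart from less RNA per cell.

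An animal cap is prospective ectoderm cut from the top of the blastula. Left in culture without inducing signals it forms an embryonic epidermis in which mucus-secreting, ion-transporting and multiciliated cells arise among other surface cells. At the gastrula stage the embryo's own genome has only recently become active, RNAs stored in the egg are being cleared, and ectodermal genes are being switched on or off in quick succession. Each gene is named by its Xenbase identifier of genome assembly version 9, since 0 of the 14373 identifiers matched the symbol table used here. Functions, cell type markers and sequences of these genes were thus not analysed here, nor was the tissue label checked against markers.

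The libraries held between 10692685 (NF24) and 40286023 (NF16) fragments assigned to genes, and the NF10 libraries between 13254827 and 28121447. At NF10 17.4% to 29.2% of fragments were unmapped and 22.6% to 28.7% of mapped ones lay outside genes. At NF24 these shares ran from 23.99% to 51.2% and from 39.3% to 54.2%. Counts of libraries within a group differed by far more than sampling noise, so no group held 1 library more than once.

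The widest difference at NF10 was 6.62 on the log2 scale, or 98.1-fold on the CPM + 1 scale, and the median over the 200 genes was 3.36, or 10.3-fold. Over all eligible genes the median was 0.70, or 1.62-fold. The last gene inside the list, at 2.77997, and the first one outside it, at 2.77980, were practically alike. The genes were of moderate level, with a median NF10 mean of 24.3 CPM against 53.2 CPM over eligible genes. In 64 of them at least 1 NF10 library was under 1 CPM (32%, against 0.906% of eligible genes), so the low end of many ranges rests on few reads.

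The 200 genes were spread unevenly over the possible orders of the replicate numbers, which describes the values that chose them. In 85 genes number 1 was highest, number 2 intermediate and number 3 lowest, and in 64 genes the order was 2, 3, 1. These 2 orders held 149 of the 200 genes. Over eligible genes they were less common, with 12.2% and 23.4% against 42.5% and 32% of the 200. The other 4 orders held 16, 15, 12 and 8 genes. When each gene was sorted by the number farthest from the other 2, number 1 stood apart as the high one in 64 genes and as the low one in 33. Number 2 stood apart as high in 41 genes and as low in 22. Number 3 stood apart as high in 5 genes and as low in 35.

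**Figure D1:**
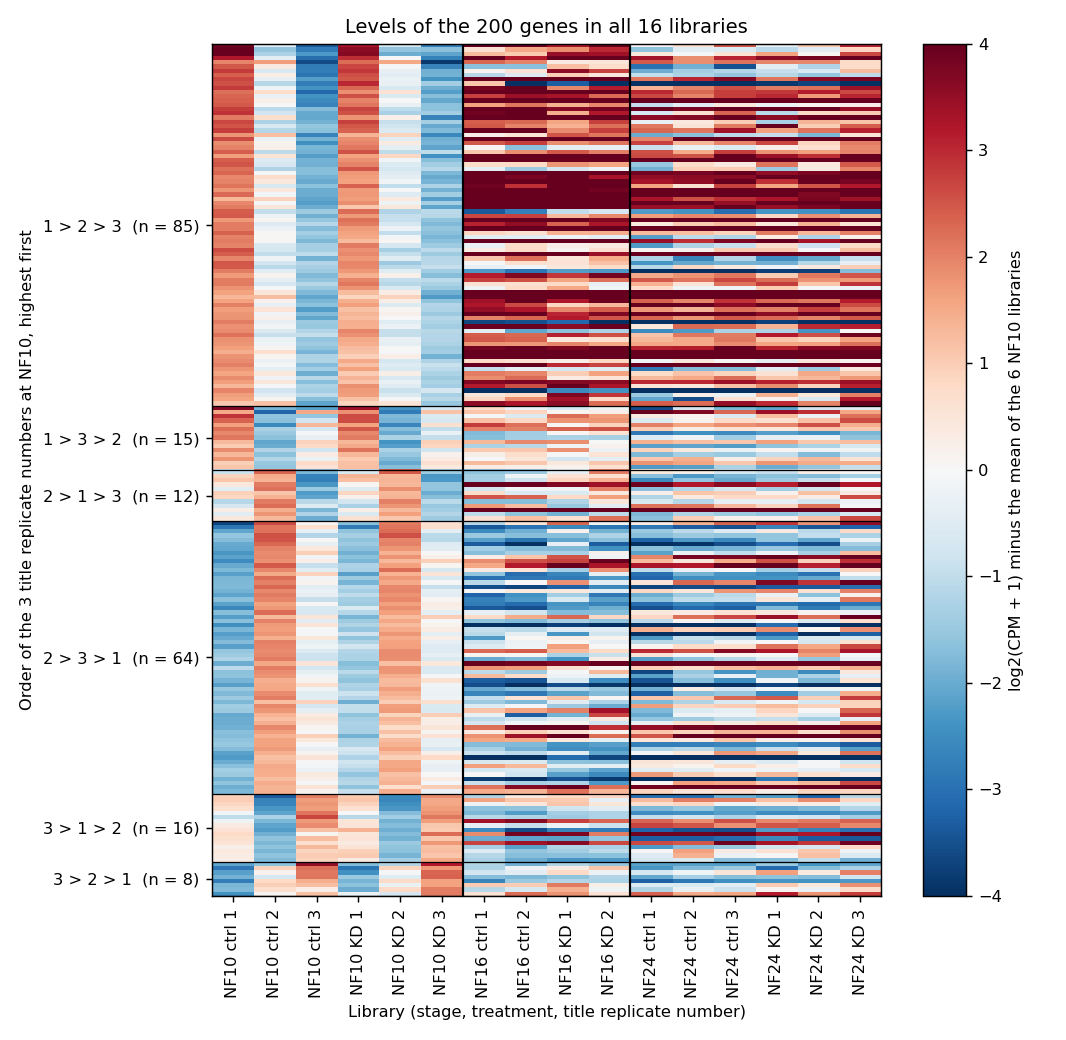
Heat map of the 200 genes (rows, grouped by the order of the 3 replicate numbers at NF10, highest first) in the 16 libraries (columns; ctrl, control; KD, knockdown). Colour is log2(CPM + 1) minus the mean of the gene's 6 NF10 values, with colours saturating at 4 either way. At NF10 the control and the knockdown columns of one number look alike, since the genes were chosen by these columns. Most of the 85 genes of order 1, 2, 3 are red at NF16, and many of the 64 genes of order 2, 3, 1 are blue.

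Xetrov90008826m.g had the widest difference of all. The NF10 controls numbered 1, 2 and 3 had 809, 41.6 and 4.55 CPM, and the knockdowns numbered alike had 535, 34.9 and 7.14 CPM. It was highest in number 1 and lowest in number 3 with and without the knockdown. At NF16 the controls stood at 1389 and 1794 CPM, above every NF10 library.

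Xetrov90009688m.g was high in the libraries numbered 1 alone. The NF10 controls were at 125, 1.62 and 0.128 CPM, and the knockdowns at 93.8, 1.65 and 1.46 CPM. The lowest of these rests on 4 reads. At NF16 its controls, at 11.1 and 21.6 CPM, lay between the number 1 libraries and the rest.

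In 2 further genes number 3 was the odd one, and low. Xetrov90005893m.g stood at 108, 88.3 and 1.35 CPM in the NF10 controls and at 131, 80.5 and 0.907 CPM in the knockdowns. Its later controls, between 100.1 and 150.2 CPM at NF16 and NF24, lay near the level of numbers 1 and 2. Xetrov90017359m.g was at 147, 32.8 and 2.82 CPM in the controls and at 168, 24.6 and 3.19 CPM in the knockdowns. Its NF16 controls were at 7.31 and 7.37 CPM, near the low end of that span.

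The gene with the most reads in both NF10 libraries numbered 1 was also among the 200. It was picked out once its values were known. Xetrov90027392m.g reached 15994 CPM in control 1 against 1250 and 397 in controls 2 and 3. The knockdowns were at 21744, 2214 and 1031 CPM. It took 1.80% and 2.398% of all counts of the number 1 libraries, a share of reads that is not corrected for gene length. The spread returned at NF16, where control 1 had 5684 CPM and control 2 had 58.0 CPM, while the knockdowns had 277 and 99.3 CPM.

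This gene also carried many reads on the opposite strand. Its opposite-strand signal was 605, 600 and 361 CPM in the NF10 controls. In the knockdowns it was 580, 839 and 931 CPM, so it spanned less than the gene itself did. At NF24 it reached 25742 CPM in control 3 and 21996 CPM in knockdown 1. Whether another transcript overlaps it was not analysed here. Pooled over the 200 genes, the opposite strand took 1.99% to 14.98% of the NF10 reads of either strand. Without this gene it took 0.901% to 2.66%, against 0.754% to 1.44% for eligible genes. A share above 10% over the NF10 libraries was found in 7 of the 200 genes (3.5%) and in 257 eligible genes (3.03%).

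Of the 200 genes 2 (1%) had under 1 CPM in each of the 10 NF16 and NF24 libraries, against 8 of all eligible genes (0.0942%), and they too were picked out once their values were known. Xetrov90016607m.g was at 18.2 CPM in control 2 and 18.7 CPM in knockdown 2, and at most 0.556 CPM in the other 4 NF10 libraries. Xetrov90017002m.g was at 29.5 and 30.4 CPM in the libraries numbered 2, at 9.36 and 11.2 CPM in those numbered 3 and at 1.27 and 2.75 CPM in those numbered 1. Both genes were thus highest in number 2, in control and in knockdown explants. The rule favours such agreement, since it averaged both arms of a number. Xetrov90016607m.g met the minimum NF10 mean only through its number 2 libraries. Nothing is therefore read from the agreement of the arms. The shares of 1% and 0.0942% rest on 2 and 8 genes of a list chosen by NF10 values, and are a description.

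**Figure D2:**
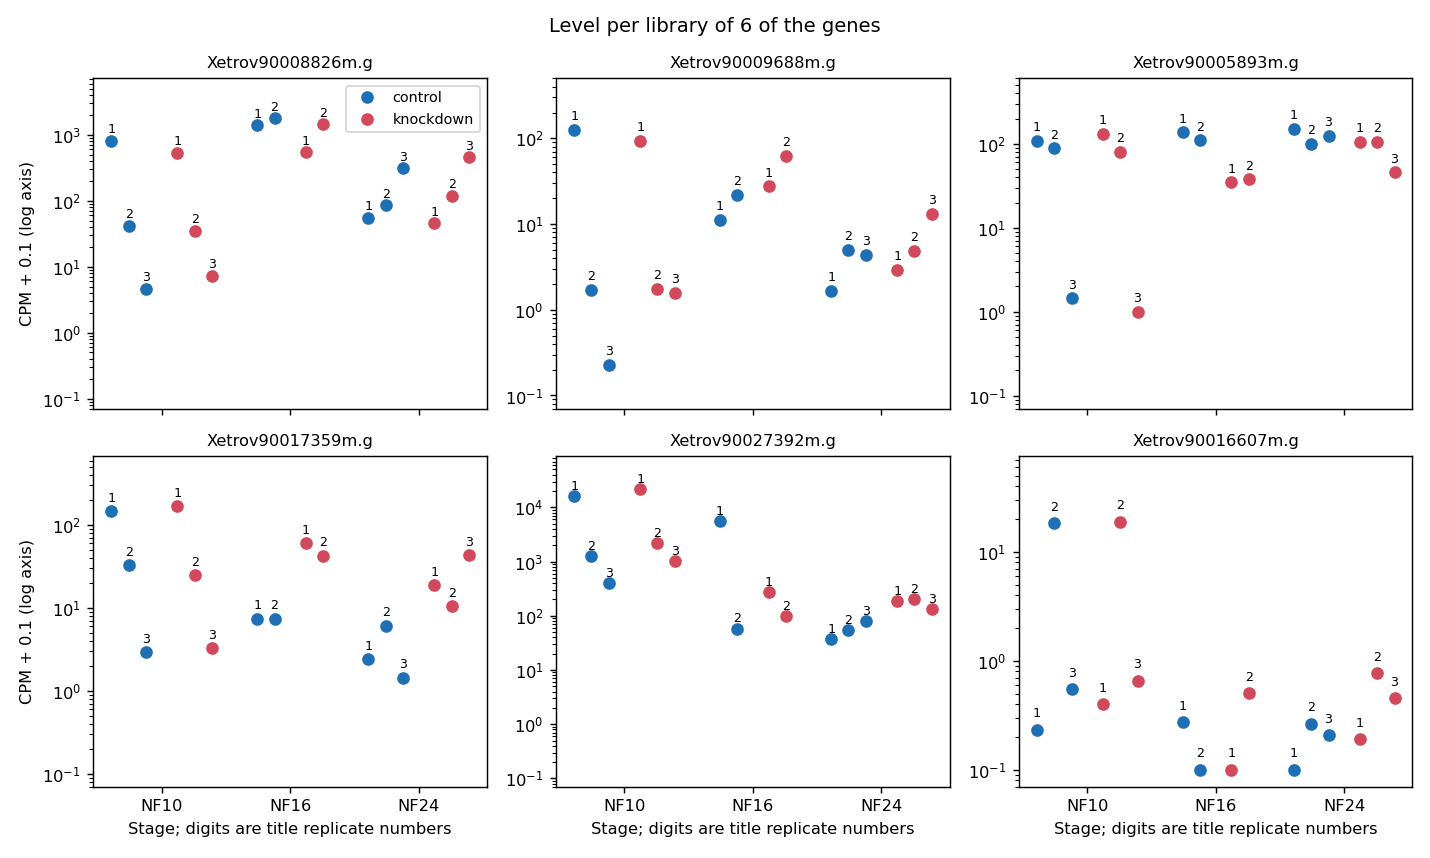
Level of 6 of the genes in each of the 16 libraries, as CPM + 0.1 on a log axis, grouped by stage, with controls in blue and knockdowns in red and the replicate number above each point. Points at 0.1 are libraries with 0 reads. At NF10 same-numbered control and knockdown points lie at similar heights, and Xetrov90016607m.g leaves the low range in the libraries numbered 2 alone.

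In these genes same-numbered control and knockdown libraries differed by less than the numbers did. The rule favours this, since it averaged both arms of a number. The order of the 3 numbers was the same in controls and in knockdowns for 182 of the 200 genes (91%), against 51.4% of eligible genes. The difference between same-numbered knockdown and control libraries had a median size of 0.29 on the log2 scale, against 0.20 over eligible genes. By that measure the 2 arms were not more alike in the 200 than elsewhere. The rule used both arms, so a separate pick was made in one arm and read in the other. Of the 200 eligible genes with the widest range over the 3 controls, 180 had the same highest and the same lowest number in the knockdowns, as against 4364 of 8495 eligible genes. Their median range was 3.67 in the controls and 3.12 in the knockdowns, which entered that pick only through the eligibility filter. Over eligible genes the knockdown median was 0.73, so their share with a kept order is not from genes of like range. In the reverse direction, 170 of 200 genes kept the order and the median range was 3.19 in the knockdowns and 3.52 in the controls. The 2 picks shared 173 and 163 genes with the list.

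The first tested question was whether the knockdown changed these genes at the gastrula. Without a block the rule had chosen genes whose libraries spread widely within both groups, which makes calls unlikely by construction, so nothing is read from their number. In edgeR's quasi-likelihood test, 0 of the 200 genes passed an adjusted p of 0.05 at NF10, as did 0% of the 11997 genes tested. At an unadjusted p under 0.05 there were 0 of the 200 and 57 of all genes. DESeq2 likewise called 0 of the 200, with 29 of them given no adjusted p. With the replicate number as a block, common variation between libraries (the biological coefficient of variation) dropped from 0.50 to 0.176. That fit called 0 of the 200, and the smallest adjusted p among them was 0.467. Here 12 of the 200 genes (6%) had an unadjusted p under 0.05, against 9.53% of all genes and 12.4% of eligible genes. The same NF10 libraries had set the list and the orders, so nothing is read from the blocked counts and medians either. With the block the median knockdown change of the 200 was 0.03 on the log2 scale, with 106 genes higher and 94 lower. Over all genes it was 0.02, with 53.4% higher. Without it the median was -0.13, and it ran from -0.51 without control 3 to 0.45 without control 1. In the 85 genes of order 1, 2, 3 the blocked median was -0.08, with 57 genes lower in the knockdown, and in the 64 of order 2, 3, 1 it was 0.16, with 47 genes higher.

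The next question was how the genes moved from gastrula to neurula in control explants. The NF10 controls had entered the rule, which set both the spread and the order of the genes there, so the values are a description. The 200 genes passed the test in 58 cases, 38 of them higher at NF16 (19%) and 20 lower (10%). Over all genes tested 25.3% were higher and 22% were lower, and nothing is read from the comparison of these shares. The median change was -0.25, against 0.00 over all genes and -0.37 over eligible genes.

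These figures depend on which NF10 control they start from. For the genes of order 1, 2, 3 the median rise to the NF16 controls was 0.76 from control 1, 3.00 from control 2 and 4.61 from control 3. For those of order 2, 3, 1 it was 0.98 from control 1, -2.58 from control 2 and -0.83 from control 3. Since the order itself was set by these libraries, only the level at NF16 is new. Without NF10 control 1, 123 genes were called (78 higher, 45 lower), where 51.8% of all genes were, and the median turned to 0.63. Nothing is read from that share either, since the rule had used the NF10 controls. Without NF10 control 2 the median was 0.20. With 1 NF16 control left in the fit, it was -0.12 without control 1 and -0.23 without control 2. Scaling by total counts alone moved the median of all genes to -0.69 and gave 30 higher and 34 lower, where 54.2% of all genes were called.

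The libraries of number 1 also lay slightly ahead of the others towards NF16 in the remaining genes. Over the 8295 eligible genes outside the list, each NF10 library was projected on the line from the NF10 mean to the NF16 control mean. Control 1 lay 9.60% and knockdown 1 3.93% of the way forward. Control 2 lay at -1.61% and knockdown 2 at -1.71%, and control 3 at -6.21% and knockdown 3 at -3.998%. Numbers 1, 2 and 3 thus fell in the order of the largest group of genes, in both arms. On the line to the NF24 controls the values were 5.30%, -1.59% and -5.17% for the controls and 0.955%, -0.247% and 0.756% for the knockdowns, which no longer followed that order. The part of this position in the differences between numbers was not tested.

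**Figure D3:**
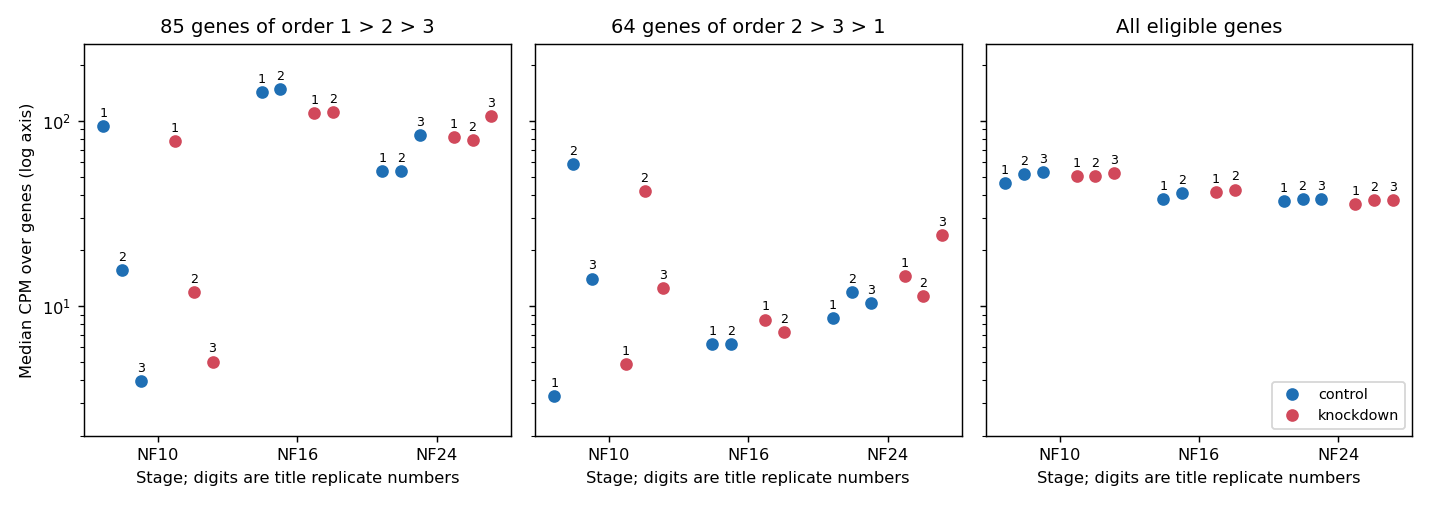
Median CPM (log axis) in each library for the 85 genes of order 1, 2, 3, the 64 genes of order 2, 3, 1 and all 8495 eligible genes, with controls in blue, knockdowns in red and replicate numbers above the points. In the first group the NF16 controls, at 143 and 148 CPM, lie above every NF10 library. In the second they lie at 6.22 and 6.27 CPM, near the low NF10 libraries, while the eligible genes stay between 35.7 and 53.2 CPM throughout.

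The fall between neurula and tailbud was measured in control libraries that the rule had not used. Of the 200 genes 78 were called, 21 higher at NF24 (10.5%) and 57 lower (28.5%). Over all genes tested 14.5% were higher and 15.1% were lower. The median change was -0.50, against 0.05 over all genes. By order at NF10, the median was -0.998 in the 85 genes of order 1, 2, 3, with 39 called lower and 2 higher. In the 64 genes of order 2, 3, 1 it was 0.63, with 14 called higher and 9 lower. In the 4 smaller orders it was -0.72 (1, 3, 2), -0.50 (2, 1, 3), 0.27 (3, 1, 2) and -0.40 (3, 2, 1). Differences between the orders were not tested. Leaving out an NF16 control leaves 1 library in that group, so no p-values or counts of calls are given here for these fits. Without NF16 control 1 the median of the 200 was -0.40, against 0.05 over all genes. Without NF16 control 2 it was -0.57, against 0.08. Scaling by total counts moved the median of all genes to 0.33 and gave 29 higher and 45 lower, where 31.6% of all genes were called.

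Among called genes of at least 5 CPM whose groups did not overlap, Xetrov90024042m.g rose the most between these stages. Its NF16 controls were at 4.01 and 2.27 CPM and its NF24 controls at 39.5, 34.6 and 20.9 CPM. The groups did not overlap, with a log2 change of 3.42 ± 0.44 (SE) and an adjusted p of 0.00371 (edgeR). Xetrov90029427m.g was at 1.22 and 1.01 CPM at NF16 and at 10.4, 7.15 and 7.66 CPM at NF24, a log2 change of 2.97 ± 0.42 (SE) at an adjusted p of 0.00463 (edgeR). Without NF16 control 2, which leaves 1 library at NF16, its log2 change was 2.81 and it missed the threshold. At NF10 it had been high in the libraries numbered 2, with 12.7 CPM in control 2, and under 0.5 CPM in those numbered 1.

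By the same rule Xetrov90017027m.g fell the most. It had 50.4 and 84.3 CPM in the NF16 controls and 3.12, 3.71 and 3.51 CPM in the NF24 controls, a log2 change of -4.24 ± 0.29 (SE) with an adjusted p of 0.00133 (edgeR). At NF10 it was a gene of order 2, 3, 1, with 370 CPM in control 2 and 367 in knockdown 2. Xetrov90008826m.g, the gene with the widest NF10 range, fell from 1389 and 1794 CPM to 55.3, 86.1 and 312 CPM. Its log2 change was -3.36 ± 0.66 (SE) with an adjusted p of 0.0110 (edgeR). When 1 library was left out, the log2 change ran from -4.43 to -2.95. The gene missed the threshold without NF16 control 1 or 2, each of which leaves 1 library at NF16.

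At the neurula the knockdown was compared in 2 libraries a group. Of the 200 genes 22 were higher in the knockdown (11%) and 25 lower (12.5%). Over all genes the shares were 7.97% higher and 12.9% lower, so the lower calls were about as frequent in the 200 as elsewhere. The median change was 0.19, against 0.03 over all genes and 0.17 over eligible genes. By order, 9 were higher and 14 lower among the 85 genes of order 1, 2, 3 (median -0.09), and 5 were higher and 8 lower among the 64 of order 2, 3, 1 (median 0.87). With 1 control left in the fit, the median of the 200 was 0.21 without control 1, against -0.002 over all genes. Without control 2 it was 0.12, against 0.02. Scaling by total counts moved the median of all genes to 0.18 and gave 28 higher and 19 lower, where 23.2% of all genes were called.

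By the same rule, 2 genes each way are named here. Xetrov90018908m.g stood at 6.09 and 7.74 CPM in the NF16 controls and at 67.0 and 35.5 CPM in the knockdowns, with a log2 change of 2.89 ± 0.41 (SE) and an adjusted p of 0.00236 (edgeR). Xetrov90010258m.g rose from 16.9 and 23.1 CPM to 191 and 104 CPM, a log2 change of 2.89 ± 0.39 (SE) with an adjusted p of 0.00198 (edgeR). At NF10 both had been highest in number 1 in both arms, the second at 113 and 114 CPM there and at 1.41 and 3.25 CPM in number 3.

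Of the 2 lowered genes, the first reached low absolute levels. Xetrov90008702m.g fell from 13.8 and 9.74 CPM to 0.588 and 2.34 CPM, a log2 change of -3.05 ± 0.64 (SE) at an adjusted p of 0.0116 (edgeR). Xetrov90015081m.g fell from 114 and 92.8 CPM to 12.5 and 23.9 CPM, a log2 change of -2.52 ± 0.39 (SE) at an adjusted p of 0.00325 (edgeR). At NF10 its number 1 libraries held 23.7 and 17.4 CPM, and the other 4 held at most 1.45 CPM. These 4 genes passed in each of the 8 alternatives that kept every library, with adjusted p-values up to 0.0156 (edgeR). Leaving out a library leaves 1 in a group, and there the log2 changes kept their sign.

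At the tailbud most of the 200 genes had a positive knockdown change, and few passed a test. The paper reports that knockdown caps came apart into single cells at this stage. It also found these replicates heterogeneous in a principal component analysis. The part of this in the NF24 changes and spread was not tested. In edgeR without a block 0 of the 200 genes passed, as did 0% of all genes, and with the replicate number as a block 1 did, where 0.0333% of all genes passed. At an unadjusted p under 0.05, 47 of the 200 were higher (23.5%) and 0 lower, against 6.75% higher and 3.48% lower over all genes. With the block these were 67 higher and 6 lower, against 10.1% and 8.36% of all genes. DESeq2 called 16 of the 200 higher (8%) and 0 lower, where 1.88% of all genes were higher. The median change was 0.46, against -0.02 over all genes, with 148 of the 200 positive, where 47.6% of all genes were. In the 64 genes of order 2, 3, 1 it was 0.93, with 53 positive, and in the 85 of order 1, 2, 3 it was 0.25, with 63 positive.

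The change was uneven between libraries. Relative to the control mean, the median of the 200 was 0.28 in knockdown 1, 0.15 in knockdown 2 and 0.76 in knockdown 3. The corresponding medians over eligible genes were -0.05, 0.00 and -0.04. Among mapped fragments 52.5%, 43.3% and 54.2% lay outside genes in knockdowns 1, 2 and 3, against 39.3% to 47.7% in the controls. Unmapped fragments made up 51.2%, 31.3% and 40.5%, against 23.99% to 34.0%. The part of these shares in the change was not tested. Leaving out knockdown 3 lowered the median change to 0.20, and leaving out control 3 raised it to 0.76. The gene called with the block was picked out here once its values were known. Xetrov90013200m.g had 53.9, 18.7 and 350 CPM in the NF24 controls and 255, 148 and 2137 CPM in the same-numbered knockdowns, a blocked log2 change of 2.61 ± 0.21 (SE) with an adjusted p of 0.0192 (edgeR). Each knockdown was above its same-numbered control, yet the groups overlapped.

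**Figure D4:**
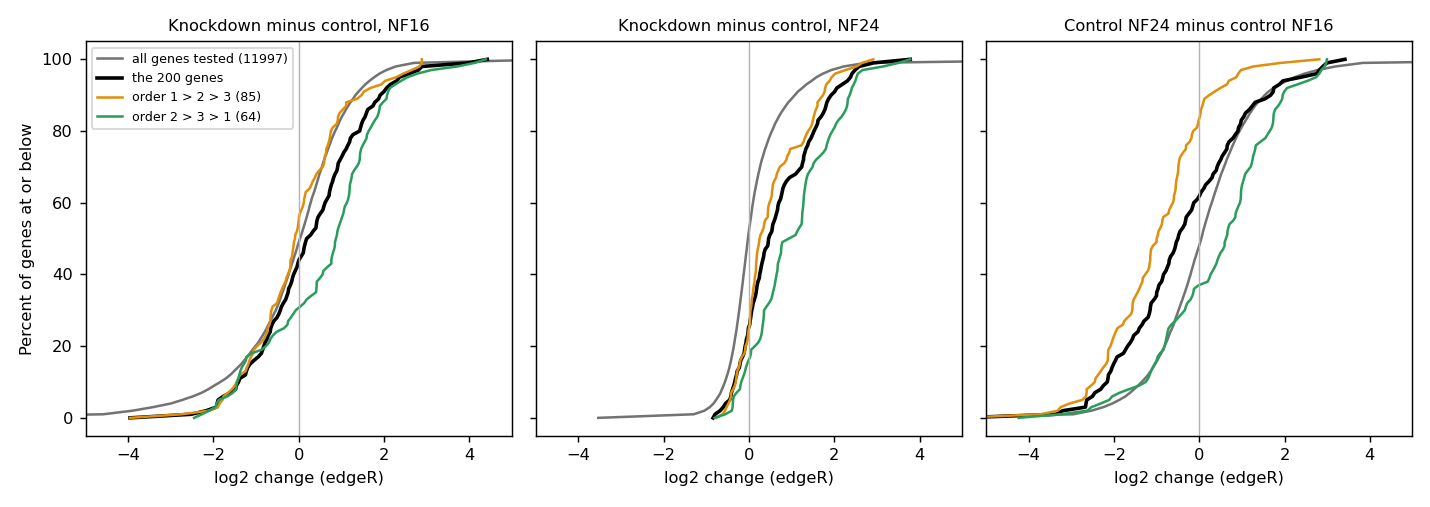
Cumulative distributions of edgeR log2 changes for all 11997 genes tested (grey), the 200 genes (black), those of order 1, 2, 3 (orange) and those of order 2, 3, 1 (green); the vertical axis is the percent of genes at or below a change. In the NF24 knockdown the black curve lies right of the grey one (medians 0.46 and -0.02). From NF16 to NF24 the orange curve lies left of it (median -0.998) and the green one right of it (0.63).

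Whether these genes also vary between libraries at later stages was asked in the NF16 and NF24 samples. Within groups, the SD of log2(CPM + 1) had a median of 0.58 over the 200 genes at NF24, against 0.30 over eligible genes. At NF16 it was 0.39 against 0.25. It exceeded the eligible median in 167 of the 200 genes at NF24 and in 144 at NF16. For the 100 genes with a control mean of at least 20 CPM at NF24 the median SD was 0.51, against 0.27 for eligible genes of such levels.

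The labels do not tie a number at NF24 to the same number at NF10, but within NF24 the numbers could be tested with treatment kept in the model. In edgeR 7 of the 200 genes (3.5%) differed between numbers at an adjusted p under 0.05, against 0.925% of all genes, and 6 of them were of order 1, 2, 3. DESeq2 called 58 (29%), against 9.86% of all genes. At an unadjusted p under 0.05 there were 87 (43.5%), against 19.8%. The median range between numbers at NF24 was 0.96, or 1.94-fold, against 0.48, or 1.39-fold, over eligible genes. In the 7 called genes it ran from 1.78 to 3.999.

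Number 3 was the highest at NF24 in 133 of the 200 genes (66.5%), against 38.8% of eligible genes. It was the highest of the 3 controls in 98 genes and the highest of the 3 knockdowns in 124. For eligible genes these shares were 39.2% and 36.3%, and for the 200 they were 49% and 62%. Number 3 also had the largest share of mapped fragments outside genes in both arms, with 47.7% against 39.3% and 42.9% in the controls and 54.2% against 52.5% and 43.3% in the knockdowns, whose part in this was not tested. At NF10 number 3 had been the highest in 24 of the 200 genes. Order 3, 1, 2 held 8% and order 3, 2, 1 held 4% of the 200, against 18.9% and 14.2% of eligible genes. Those NF10 values had entered the rule, and the labels do not tie the numbers of the 2 stages. Xetrov90008826m.g, one of the 7, shows both patterns: it was lowest in number 3 at NF10 and highest there at NF24, with 312 CPM in control 3 and 455 CPM in knockdown 3.

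**Figure D5:**
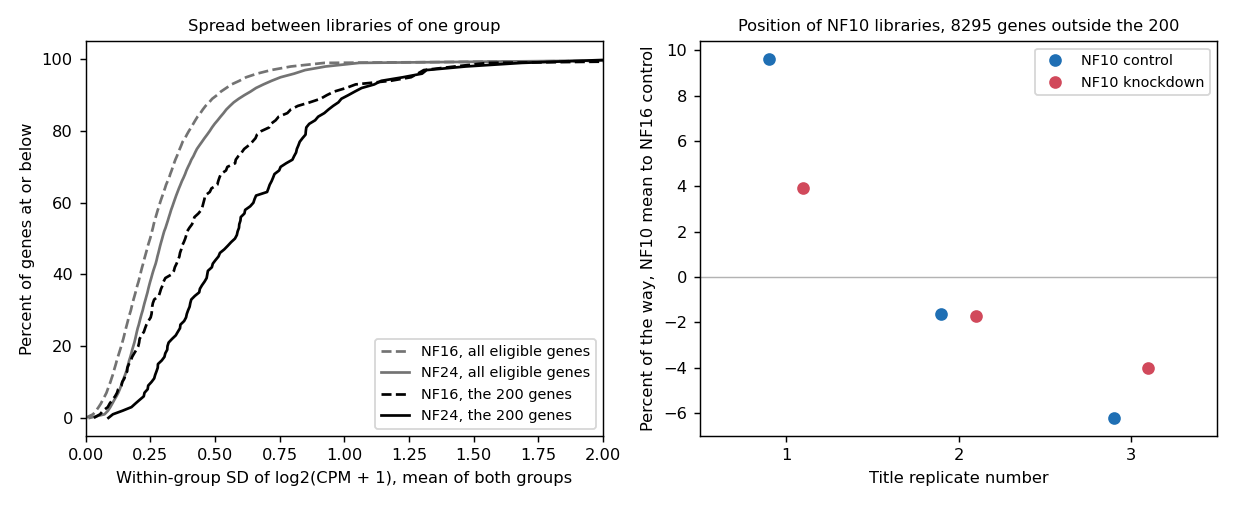
Left, cumulative distribution over genes of the within-group SD of log2(CPM + 1), averaged over control and knockdown, at NF16 (dashed) and NF24 (solid) for eligible genes (grey) and the 200 genes (black). Right, position of each NF10 library, in percent of the way from the NF10 mean to the NF16 control mean, by replicate number, with controls in blue and knockdowns in red. The NF24 median SD is 0.58 for the 200 genes against 0.30, and positions run from 9.60% (control 1) to -6.21% (control 3).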

How the data were processed

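Total RNA of animal caps was depleted of ribosomal RNA with either a Ribo-Zero Gold or an NEBNext kit and made into directional libraries. The paper does not say which library had which kit, and the part of the kit in the differences was not tested. Reads were mapped by the authors with STAR (2.4.2a in the submitters' processing notes) to assembly version 9 of the frog's genome. The paper's methods name another STAR version. The deposited values are STAR's raw counts per gene, unstranded and for each strand. The multimapping tally was 0 in every library, so near-identical gene copies may be undercounted. The strand column with the larger total was used. The members and lists were chosen with earlier results of these data known.

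Genes with at least 1 read in 75% of libraries (12 of 16) were tested, 11997 in all, the 200 included. Groups were taken from the labels. Each comparison was fitted on its own libraries with edgeR 4.0.16 (quasi-likelihood test, TMM factors, Benjamini-Hochberg adjustment over all genes tested) in R 4.3.3. The threshold was an adjusted p of 0.05. SE is the log2 change divided by the root of F. Totals of 10692685 to 40286023 fragments set the counting precision. The code was tested on simulated data that varied less between libraries than the real ones. That checks the code, and not how many changes these tests could find. The NF24 replicate number test was an F test of the number terms with treatment in the model.

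Same-numbered control and knockdown libraries deviated together from their group means at NF10 (correlations 0.859, 0.896 and 0.724 across genes) and at NF24 (0.448, 0.278 and 0.588). The main knockdown fits nevertheless had no block, and the fits with the number as a block are given beside them. At NF16 the correlation was -0.18.

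Alternatives were DESeq2 1.42.0, RLE factors, total counts, other filters, the unstranded column, pseudocounts of 0.5 and 5, the replicate number as a block, and leaving out each library. At NF10, 2 genes whose outlying number was high and 2 where it was low were named by range. At NF16 and from NF16 to NF24, the 2 called genes each way with the largest change, a mean of at least 5 CPM and no overlap of groups were named. No sequences are given, since gene models of the assembly were not used here.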

Additional observations from a re-analysis of the deposited data

How the results depend on the processing

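Of 225 values under alternatives 201 were close to the reported one, 24 of which were counts of 0 against 0. Close meant within 1.5 times for counts, the same direction and side of the threshold for tested genes, and within the SD between control and knockdown for other values. Raising the minimum to 20 CPM left 108 of the 200 genes in the list, because 92 of them averaged less, and leaving out an NF10 library left 175 to 189. Number 1 stood apart as high in 62 to 71 genes without 1 NF10 library and in 58 at the higher minimum. DESeq2 called 16 of the 200 at NF24 in the knockdown, where 2.24% of all genes were called. Between NF10 and NF16 it called 94, where 53.5% of all genes were called, and nothing is read from that share, as above. Between NF24 numbers it called 58, where 9.86% of all genes were called. For the same test no filter gave 19, where 2.82% of all genes were called, and filterByExpr 4, where 0.475% were. Leaving out a library gave 24 to 66 calls in the NF16 knockdown, 7 to 123 from NF10 to NF16, 11 to 83 from NF16 to NF24, and 0 in each NF10 and NF24 knockdown fit. Fits without an NF16 library leave 1 library in that group, so nothing is read from their counts. Without 1 NF24 control, 55 to 83 genes were called from NF16 to NF24, where 17.4% to 31.3% of all genes were. Without 1 NF10 control, 58 to 123 were called from NF10 to NF16, where 39.4% to 51.8% of all genes were. The shares over all genes thus moved too, and nothing is read from those with the NF10 controls, as above. The median NF24 SD was 0.42 with a pseudocount of 5, and 0.46 to 0.56 without 1 library.

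The replicate number as a block gave 1 call at NF24 and 0 at NF10, where 0.0333% and 0% of all genes were called. At NF16 it gave 40, where 16.4% of all genes were called. The crossed pairing there, chosen after seeing the data, gave 68, where 30.9% were called. With 2 libraries a group the NF16 correlation does not settle which numbers pair. The position of number 2, the mean of its libraries, moved from -0.0166 to -0.0184 with RLE factors, -0.0268 with total counts, -0.0188 with a pseudocount of 5, -0.0194 with the 200 genes included and -0.00918 on the line to NF24. That of number 3 moved from -0.0510 to -0.0221 on the line to NF24. That of number 1, whose 2 libraries differ more, went from 0.0676 to 0.0313 there. Beside the higher minimum, the cause was not tested. Depth limits the low end, since 64 of the genes had an NF10 library under 1 CPM.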
